A study of Homo sapiens with 6 samples.

Results

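Chromatin accessibility was examined at 10 genes that encode subunits of the SWI/SNF chromatin remodellers: the ATPases SMARCA4 and SMARCA2, the shared subunits SMARCB1, SMARCC1, SMARCC2 and SMARCD3, the BAF-specific subunits ARID1A and ARID1B, and the PBAF-specific subunits ARID2 and PBRM1. They were chosen by name as members of the complexes, and all peaks that overlapped a gene's span on GRCh38 plus 10 kb on either side were assigned to it. All 10 genes were found among the 20033 protein-coding genes of the RefSeq gene table, and their windows held 392 of the 507440 regions obtained by merging the peaks of all libraries at an overlap of at least 1 bp. The data come from ATAC-seq, in which a transposase inserts sequencing adapters into open DNA, in NCI-H1703, an established line labelled as lung squamous cell carcinoma. Cells with silenced DLGAP1-AS2, a long non-coding RNA, gave 3 libraries (titled ASO), and control cells gave 3 (titled NC). How the RNA was silenced, and for how long, is not given in the sources used here. All libraries come from a single cell line. The labels do not say whether the libraries of a group came from separate cultures, so p-values measure only the spread between these libraries, which may be technical.

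SWI/SNF complexes use the energy of ATP to slide or evict nucleosomes and so open promoters and enhancers. In canonical BAF and PBAF a single ATPase, either SMARCA4 (BRG1) or SMARCA2 (BRM), sits on a core that holds SMARCB1, SMARCC1 and SMARCC2. Canonical BAF contains ARID1A or ARID1B, whereas PBAF contains ARID2 and the bromodomain protein PBRM1. Genes of several subunits are mutated in cancers, lung carcinoma among them, and NCI-H1703 is known as a line that has lost SMARCA4 protein. The peak lists measure accessibility of these genes and neither their RNA nor their protein, nor do they measure the level of DLGAP1-AS2.

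The libraries held 91346 to 170882 peaks. Sequencing depth in reads is unknown, and the libraries were not equally covered. Across the 37284 regions called in all 6 libraries, here called shared regions, the median peak height (the authors' pileup at the peak, in their unscaled units) was 10 in silenced replicate 3 and 16 to 19 in the other libraries. Control replicate 2 had the shortest list and no peak lower than 3. A height is therefore comparable within a library, and between libraries only after ranking or against the library's other peaks. Values per library are listed in the order of replicates 1, 2 and 3. Of the squamous markers, SOX2 had a start-site region called in all 6 libraries, whereas TP63, KRT5, DSG3, PKP1 and CLCA2 did not. Among adenocarcinoma markers NKX2-1 had a region in all 6, and NAPSA, SFTPB and HNF4A did not. Of mesenchymal markers CDH2 and ZEB1 had a region in all 6 and VIM and PDGFRA did not. At least 1 library had a call at 3 of these 6 squamous, 3 of these 4 adenocarcinoma and 3 of these 4 mesenchymal genes. The blood cell marker PTPRC had no call in any library. At an FDR of at most 1e-05, NKX2-1 was the only one of these markers with a region in all 6 libraries.

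In the windows of the 10 genes, 35 regions (8.93%) were shared by all libraries, against a background of 7.35% of all merged regions. Another 266 regions (67.9%) were called in a single library, against 74.1% of all regions. The regions called once were low, with a median height of 3 and a maximum of 15. The shared regions had a median height of 24, compared with 16.5 over all shared regions. Of the 35 shared regions, 8 lay at a start site, 16 inside a gene span away from a start site, and 11 in the flanks, where they may belong to neighbouring genes. A start site was defined by the RefSeq promoter window, which runs from 250 bases before to 50 after a start. RefSeq windows of assembly GRCh38.p14 were matched for 7 of the genes. For SMARCC1, SMARCC2 and ARID2 an end of the gene span plus 250 bp on either side took its place. Both ends were examined without use of the strand, and the end with a shared region was taken as the start. The opposite end had no peak in any library. That these starts were covered therefore follows from how they were chosen.

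The start site was overlapped by a shared region in 8 of the 10 genes, the exceptions being ARID1A and ARID1B. In SMARCC1, SMARCC2 and ARID2 that region had itself decided which end was taken as the start. At ARID2 the peaks of silenced replicate 3 and control replicate 3 in that region lay outside the start window. With peaks of an FDR of at most 1e-05 alone, 6 were left, without SMARCA4 and SMARCD3. Without silenced replicate 3 there were 9, ARID1A included. Counting only the 7 genes with RefSeq windows, 5 (71.4%) had such a region, against 59.0% of the 15842 protein-coding genes with a window. Among 19 other subunit genes of the complexes, 17 had a window and 13 of these (76.5%) a shared region there, including SMARCD1, SMARCE1, DPF2, BRD9 and SS18. The start sites of ACTL6B, BCL7A, BRD7 and PHF10 had no shared region. All 17 genes had a region called there in at least 1 library. Among catalytic subunits of other remodellers, 9 of 11 with a window (81.8%) had a shared region, with CHD3 and CHD4 as the exceptions. At an FDR of at most 1e-05 the order of members and all genes turned, with 3 of the 7 members (42.9%) against 47.8% of protein-coding genes. The other subunits then had 8 of 17 (47.1%), with SMARCD1, SMARCE1 and DPF2 among those lost, and the other remodellers 8 of 11 (72.7%). The plot of start-site heights shows the level in each library.

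**Figure D1:**
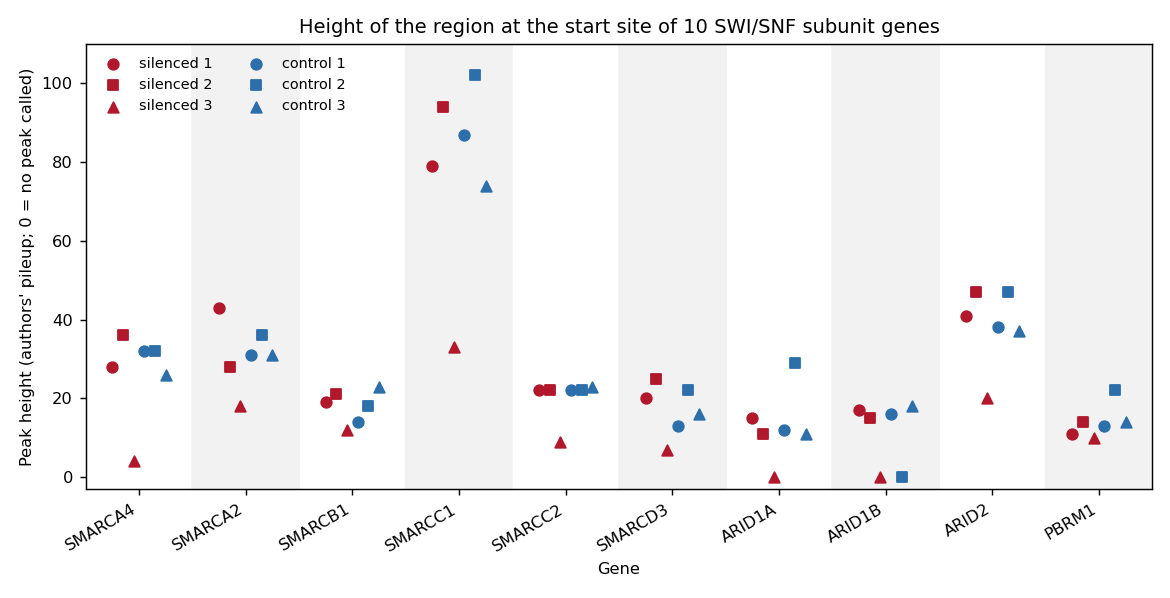
Peak height (authors' pileup, vertical axis) of the region at the start site of each gene, one point per library, red for silenced and blue for control, with the shape giving the replicate. For genes with several start sites the site with the largest summed height is drawn. SMARCC1 stands highest, at 33 to 102, and silenced replicate 3 gives the lowest point, or a point at 0, in every gene.

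SMARCA4, the ATPase gene on chromosome 19 (span 10961030 to 11062273), held 30 regions, of which 2 were shared. The main start site has a promoter window at chr19:10960780-10961079 on the forward strand, shown here because silenced replicate 3 stood apart at this start. Capitals in all printed windows mark motif letters found on either strand. The motif of TEAD factors was searched as GGAATG, that of AP-1 factors as TGANTCA and that of SP/KLF factors as GGGCGG, whose matches can overlap each other. The motif of ETS factors was searched as CCGGAAG, the CCAAT box as its reverse strand ATTGG and the E box as CACGTG. The remaining motifs were the TATA box, searched as TATAAA, and the core of the NRF1 motif, searched as TGCGCA.
SMARCA4 main start: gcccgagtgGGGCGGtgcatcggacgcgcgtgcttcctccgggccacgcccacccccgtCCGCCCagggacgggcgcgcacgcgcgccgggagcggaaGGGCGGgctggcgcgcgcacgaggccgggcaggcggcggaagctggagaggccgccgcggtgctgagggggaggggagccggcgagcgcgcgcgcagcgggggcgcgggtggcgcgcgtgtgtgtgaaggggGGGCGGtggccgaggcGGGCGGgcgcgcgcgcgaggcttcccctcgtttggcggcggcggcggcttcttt
The window is 81.3% G and C and has 55 CpG dinucleotides, more than 99.6% of the 35116 RefSeq promoter windows. It holds 5 matches to GGGCGG, a motif found in 45.0% of all windows, and no match to the other 7 motifs.

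At this start site the peak height was 28, 36 and 4 in the silenced libraries and 32, 32 and 26 in the controls. Ranked by fold enrichment among the shared regions of each library, silenced replicates 1 and 2 (74.4 and 80.3 percentile) lay within the control range of 70.2 to 83.4. Silenced replicate 3, at the 9.45 percentile, stood far below it. In that library the region was called as 2 separate peaks of height 4 (chr19:10960097-10960577 and chr19:10960650-10960934), with FDR of 0.0275 and 0.0228, neither of which reached the start at 10961030. The peak of silenced replicate 1 also ended short of it, at 10961015. In the other 5 libraries a single peak had an FDR of at most 1.24e-21. The height in silenced replicate 3 was 0.125 of the median of the other libraries, where the median ratio over all shared regions was 0.575. Only 11 of the 37284 shared regions had a ratio as low or lower in that library. The background coverage implied by the deposited fold enrichment, (height + 1) / fold enrichment − 1, was 0.42 there, against 0.66 to 2.06 at the other 7 shared start-site regions of that library.

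**Figure D2:**
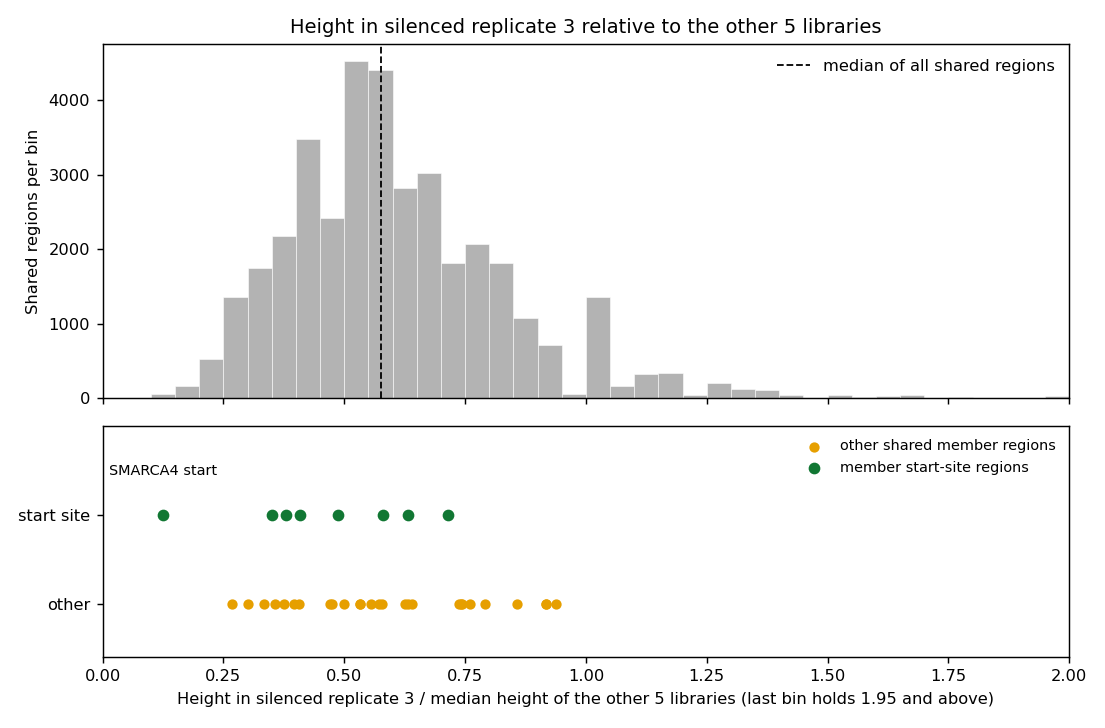
Upper panel, histogram of the height in silenced replicate 3 divided by the median height of the other 5 libraries, over all 37284 shared regions, with the median of 0.575 as a dashed line. Lower panel, the same ratio for the 35 shared member regions, where the SMARCA4 start site lies alone at 0.125 and the other start sites lie between 0.350 and 0.714.

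The tallest region of the SMARCA4 window was not at the start but 74.8 kb inside the gene (chr19:11035878-11036448). Its heights were 39, 41 and 15 in the silenced libraries and 40, 40 and 42 in the controls. Silenced replicate 3 was again lowest, at 0.375 of the median of the others, a ratio that 14.1% of the shared regions had or fell below. By fold enrichment over the local background this internal region ranked higher than the start in every library, at the 76.3 to 95.1 percentile of shared regions. The start ranked at the 9.45 percentile in silenced replicate 3 and at the 70.2 to 83.4 percentile elsewhere. A downstream SMARCA4 start at 10984124 had no peak in any library, and its window had 5 CpG dinucleotides.

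SMARCA2, the alternative ATPase gene on chromosome 9 (span 2015347 to 2193620), had the emptiest window of the 10. It held 14 regions, or 7.06 per 100 kb, where 7.63% of protein-coding gene windows had fewer and their median was 21.9. A single region, at the main start (chr9:2014612-2015466), was shared. Heights there were 43, 28 and 18 in the silenced libraries and 31, 36 and 31 in the controls. Ranked by fold enrichment among shared regions, it stood at the 94.2, 71.2 and 82.2 percentile in silenced libraries and at 81.2, 80.3 and 81.8 in controls. The groups overlapped, with the highest and the lowest rank both in silenced libraries. The ratio for silenced replicate 3, 0.581, was close to the median of all shared regions.

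RefSeq lists 3 further SMARCA2 starts, 2 of them (2157662 and 2158464) far inside the gene, where shorter transcripts begin. The merged region over these internal starts (chr9:2157333-2158550) was called in 5 libraries, with heights of 6 and 7 in the first and second silenced libraries and 6, 5 and 6 in the controls. It was missing in silenced replicate 3, the least covered library. Peaks on the window of 2157662 were called only in silenced replicates 1 and 2 (heights 6 and 4) and control replicate 2 (5). The window of 2158464 had peaks in silenced replicate 1 (4) and the 3 controls (6, 5 and 6). The start at 2021945 had no peak in any library. The main window (chr9:2015097-2015396) and the first internal window (chr9:2157412-2157711), both on the forward strand, are printed to contrast a tall and a weak start of one gene.
SMARCA2 main start: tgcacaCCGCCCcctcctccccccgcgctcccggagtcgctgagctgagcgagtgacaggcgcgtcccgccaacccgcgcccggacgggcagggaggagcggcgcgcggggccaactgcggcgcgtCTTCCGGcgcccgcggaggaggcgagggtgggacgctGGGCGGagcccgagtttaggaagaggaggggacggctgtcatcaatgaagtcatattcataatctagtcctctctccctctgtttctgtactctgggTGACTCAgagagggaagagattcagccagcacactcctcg
SMARCA2 internal start: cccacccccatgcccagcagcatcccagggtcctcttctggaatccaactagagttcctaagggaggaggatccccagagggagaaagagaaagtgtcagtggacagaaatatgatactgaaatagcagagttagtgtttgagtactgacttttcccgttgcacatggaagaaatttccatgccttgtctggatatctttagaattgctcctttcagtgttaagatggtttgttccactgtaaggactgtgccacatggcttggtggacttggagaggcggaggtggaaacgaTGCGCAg
The main window is 66.7% G and C with 30 CpG dinucleotides and has matches to the AP-1, SP/KLF and ETS letters, present in 7.71%, 45.0% and 10.3% of all windows. The internal window is 48.7% G and C with 4 CpG dinucleotides and has a match only to the NRF1 core, present in 8.24% of all windows.

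**Figure D3:**
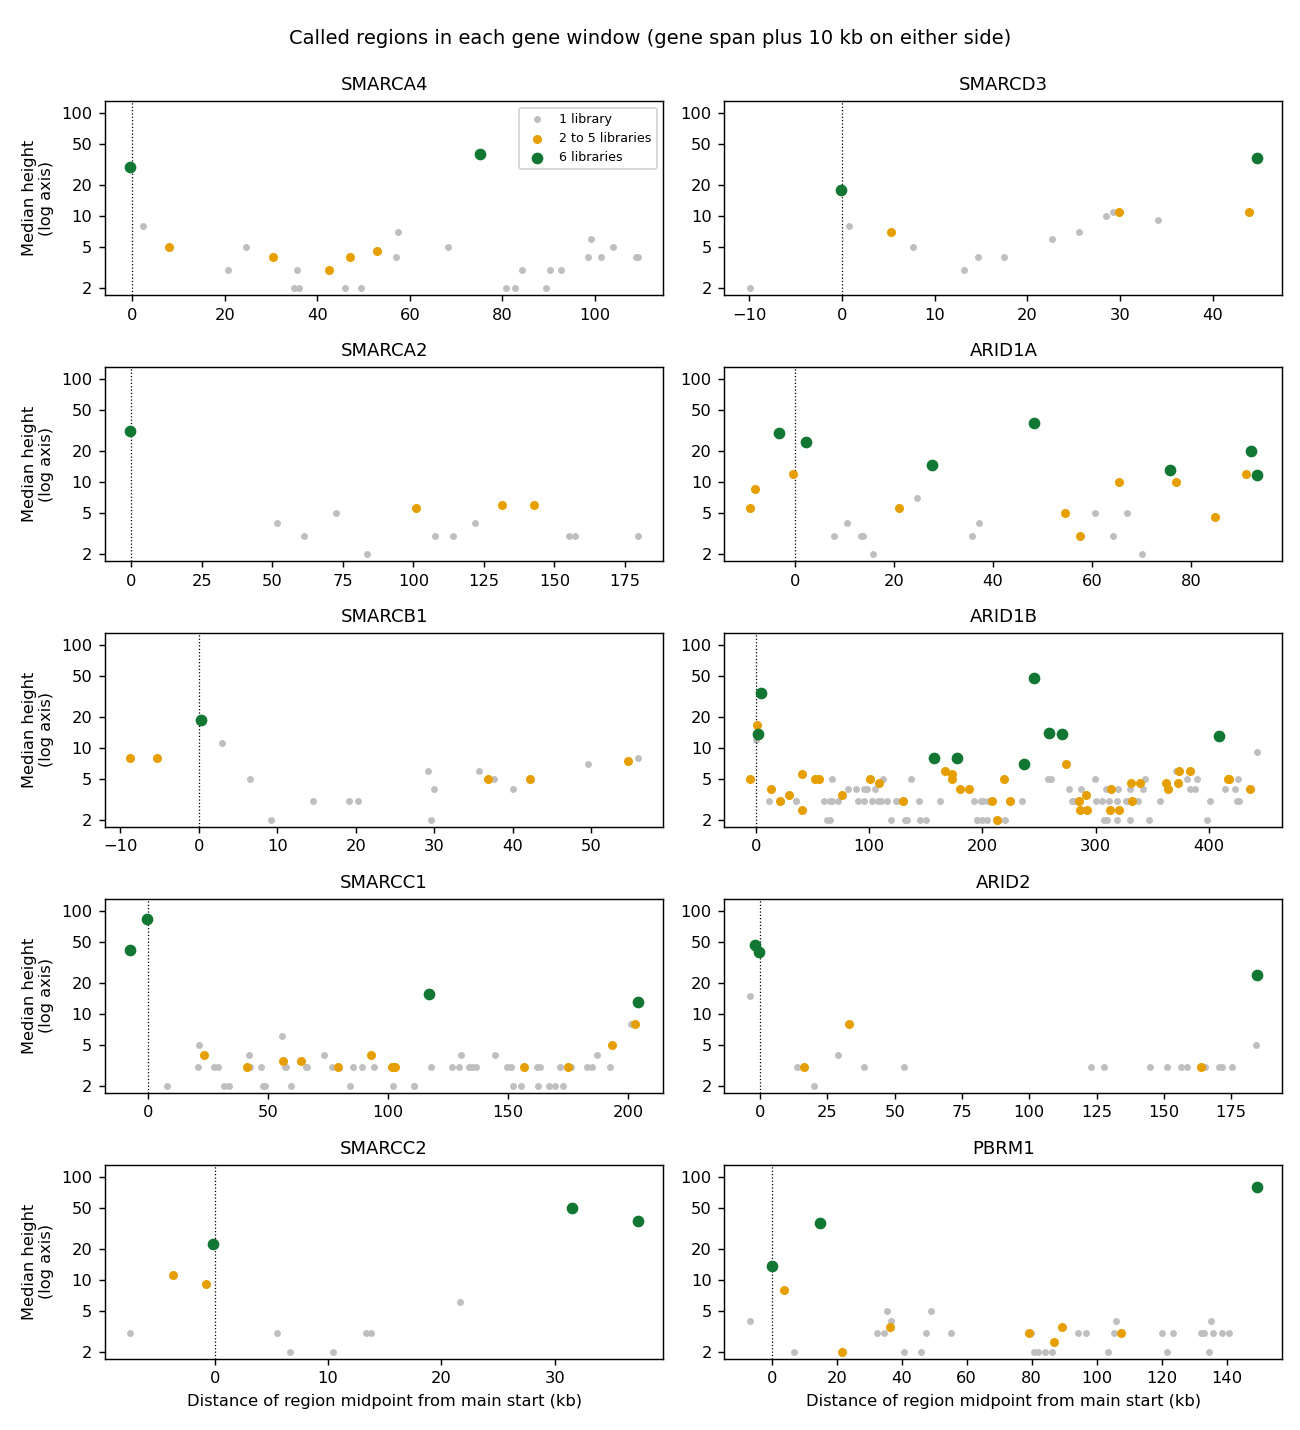
Each panel shows the called regions of one gene window. The horizontal axis gives the distance of the region's midpoint from the main start in kb (positive into the gene) and the vertical log axis the median height over the libraries that called it. Grey, orange and green points were called in 1, 2 to 5 and 6 libraries. The body of SMARCA2 and of ARID2 carried few regions, while ARID1B carried 138.

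Among the shared subunits, SMARCB1, a core scaffold subunit on chromosome 22 (span 23786966 to 23838009), held 20 regions, and the start-site region (chr22:23786673-23787770) was the shared one. Heights were 19, 21 and 12 in the silenced libraries and 14, 18 and 23 in the controls. Ranked by fold enrichment among shared regions, it stood at the 47.8, 53.4 and 58.4 percentile in silenced libraries. In the controls it stood at the 23.5, 36.7 and 57.0 percentile, so the groups overlapped. The promoter window held matches to the AP-1, SP/KLF, CCAAT box and NRF1 core letters.

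SMARCC1, which together with SMARCC2 forms the dimer at the base of the complex, had the tallest start of all 10 genes. The region at the end of its span on chromosome 3 (chr3:47781672-47782473) had heights of 79, 94 and 33 in the silenced libraries and 87, 102 and 74 in the controls. It ranked at the 91.5 percentile or above among shared regions in every library. The window held 69 regions, 31.9 per 100 kb, a density above that of 90.3% of protein-coding windows, yet 53 of them were called once. A second tall region lay 6.75 kb outside the span (chr3:47788638-47789665, heights 31 to 52).

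SMARCC2 on chromosome 12 (span 56162359 to 56189483) has close neighbours. Its own end-of-span region (chr12:56189338-56189916) had heights of 22, 22 and 9 in the silenced libraries and 22, 22 and 23 in the controls. Apart from silenced replicate 3, this was the narrowest range of the 8 shared start-site regions. A transfer RNA gene, TRS-CGA4-1, has an end within 1 kb of it. In silenced replicates 1 and 3 and control replicate 1 the peak did not cover the span end at 56189483. The other 2 shared regions of the window, with heights of 38 to 54 (chr12:56157447-56158518) and 18 to 42 (chr12:56151661-56152710), lay beside ends of MYL6 and MYL6B, so the SMARCC2 window count is shared with these myosin light chain genes.

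SMARCD3 on chromosome 7 (span 151238780 to 151277149), which encodes a BAF60 adaptor subunit, had 16 regions. The region at its upstream start (chr7:151277034-151277523) had heights of 20, 25 and 7 in the silenced libraries and 13, 22 and 16 in the controls. The downstream start at 151248694 had a peak of height 10 in silenced replicate 2 and none in the other libraries, and its window held 36 CpG dinucleotides. The second shared region (chr7:151232168-151232651, heights 15 to 42) lay at an end of CHPF2.

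ARID1A and ARID1B, the large DNA-binding subunits of canonical BAF, lacked a shared region at the start. The ARID1A start-site region (chr1:26695455-26695886) had heights of 15 and 11 in the first and second silenced libraries and 12, 29 and 11 in the controls, with no peak in silenced replicate 3. All 5 peaks ended before the start at 26696015, and that of control replicate 1 (to 26695706) ended just before the promoter window and is counted because it merged with the others. The deposited fold enrichment was low there, from 2.43 to 6.07, on an implied local background of 3.02 to 3.94, where the SMARCA4 start had 1.46 to 1.82 in the same 5 libraries. In ARID1B the first start, at 156776026, had no peak in any library. The second, at 156777378, was overlapped by a peak of height 17 in silenced replicate 1, 15 in silenced replicate 2, 16 in control replicate 1 and 18 in control replicate 3, and by none in silenced replicate 3 or control replicate 2. The missing call in control replicate 2 fell in the library with the highest median height. The windows of ARID1A (chr1:26695765-26696064) and of both ARID1B starts (chr6:156775776-156776075 and chr6:156777128-156777427), all on the forward strand, are printed because these starts were not called in every library.
ARID1A start: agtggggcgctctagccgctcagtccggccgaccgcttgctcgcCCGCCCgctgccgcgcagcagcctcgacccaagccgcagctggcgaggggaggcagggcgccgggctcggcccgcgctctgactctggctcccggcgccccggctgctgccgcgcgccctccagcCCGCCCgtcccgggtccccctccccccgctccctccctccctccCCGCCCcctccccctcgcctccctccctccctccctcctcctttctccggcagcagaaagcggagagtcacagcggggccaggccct
ARID1B first start: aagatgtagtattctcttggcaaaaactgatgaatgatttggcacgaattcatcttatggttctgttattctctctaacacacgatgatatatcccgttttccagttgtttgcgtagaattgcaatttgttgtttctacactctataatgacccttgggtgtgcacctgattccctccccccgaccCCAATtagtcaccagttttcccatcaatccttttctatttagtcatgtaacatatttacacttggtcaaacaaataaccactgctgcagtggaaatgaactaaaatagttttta
ARID1B second start: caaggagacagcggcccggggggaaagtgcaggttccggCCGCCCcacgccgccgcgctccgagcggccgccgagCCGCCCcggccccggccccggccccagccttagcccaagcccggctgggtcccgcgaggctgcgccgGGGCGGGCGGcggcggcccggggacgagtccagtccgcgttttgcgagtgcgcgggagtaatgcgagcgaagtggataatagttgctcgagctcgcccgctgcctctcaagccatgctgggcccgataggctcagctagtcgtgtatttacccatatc
The first ARID1B window is 37.7% G and C with 5 CpG dinucleotides, while the second is 72% G and C with 39. The ARID1A window is 78% G and C, more than in 95.1% of all windows, and holds 3 matches to GGGCGG.

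The missing start calls contrasted with accessible regions nearby. ARID1A had 7 shared regions in a window of 106 kb, 6.6 per 100 kb, more than in 81.8% of protein-coding windows. The 2 closest flanked the start, 2.66 kb outside the span (chr1:26692234-26693352, heights 22 to 33) and 1.95 kb inside (chr1:26697965-26698441, heights 16 to 29). LOC124900417 and LOC101928728 have ends within 1 kb of the region outside the span. The tallest, 48.0 kb inside the gene (chr1:26743972-26744468), had heights of 38, 35 and 22 in the silenced libraries and 53, 36 and 54 in the controls. ARID1B, the longest of the genes at 435 kb, held 138 regions, 9 of them shared. The closest to its second start (chr6:156777781-156778521) began 354 bp beyond that start's promoter window. Its heights were 13, 14 and 7 in the silenced libraries and 11, 17 and 15 in the controls. LOC115308161 has an end within 1 kb of this region. The tallest ARID1B region lay 245 kb inside the gene (chr6:157020949-157022420), with heights of 48, 53 and 19 in the silenced libraries and 54, 47 and 45 in the controls. Whether these internal regions lie in exons or introns was not analysed here.

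In the PBAF group, ARID2 on chromosome 12 (span 45729706 to 45908037) resembled SMARCA2 in having a sparse window, with 11.6 regions per 100 kb, where 15.0% of protein-coding windows had fewer. Its end-of-span region (chr12:45728680-45729719) had heights of 41, 47 and 20 in the silenced libraries and 38, 47 and 37 in the controls. A region 1.65 kb further out (chr12:45727411-45728054, heights 31 to 66) lay at an end of LINC00938, a neighbouring non-coding gene.

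PBRM1, the polybromo subunit gene on chromosome 3 (span 52545367 to 52685913), had a low start. The region there (chr3:52685352-52686425) had heights of 11, 14 and 10 in the silenced libraries and 13, 22 and 14 in the controls. GNL3 has an end within 1 kb of this region, which cannot be divided between both genes. A taller region lay 14.4 kb inside the gene (chr3:52670624-52671495), with heights of 39, 36 and 33 in the silenced libraries and 35, 45 and 28 in the controls, and silenced replicate 3 was not the lowest, unlike in 30 of the 35 shared member regions, where it was lowest or tied, as in 79.0% of all shared regions. The tallest region of the window (chr3:52536237-52536869, heights 31 to 94) lay at an end of UQCC5. The upstream PBRM1 window, on the reverse strand at chr3:52685864-52686163, is printed because it lies at the ends of both genes.
PBRM1 upstream start: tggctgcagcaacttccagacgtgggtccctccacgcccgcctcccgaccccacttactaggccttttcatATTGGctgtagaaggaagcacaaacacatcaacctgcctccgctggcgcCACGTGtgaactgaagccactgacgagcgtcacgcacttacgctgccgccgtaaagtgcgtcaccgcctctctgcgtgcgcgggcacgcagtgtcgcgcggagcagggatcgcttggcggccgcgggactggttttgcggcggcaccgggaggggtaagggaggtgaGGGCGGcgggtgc
It held single matches to the SP/KLF, CCAAT box and E box letters, the last present in 7.26% of all windows. Across the 15 windows of the 7 genes, GGGCGG was found in 9 (60%), against 45.0% of all windows. It lay in at least 1 window of every gene, but the share of all genes with a match was not computed. The TEAD letters GGAATG, present in 14.0% of all windows, were found in 1 of the 15 (6.67%). This was the downstream SMARCD3 start at 151248694, which was called in 1 library.

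By median height over the libraries, the start-site regions were ordered SMARCC1 (83), ARID2 (39.5), SMARCA2 (31), SMARCA4 (30), SMARCC2 (22), SMARCB1 (18.5), SMARCD3 (18) and PBRM1 (13.5). The ARID2 value is that of its merged region, whose tallest peak lay outside the start window in every library but silenced replicate 1. Only the step from SMARCC1 to ARID2 separated the genes within every library. SMARCA2 and SMARCA4 overlapped widely, as did SMARCC2, SMARCB1 and SMARCD3. Fold enrichment, which divides by the local background, gave another order for ARID2, whose implied background had a median of 4.07 against 1.03 to 3.37 at the other 7 starts. Its merged start-site region ranked at the 43.0 to 59.2 percentile of shared regions, below that of SMARCA2 at 71.2 to 94.2.

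The comparison of silenced with control cells asked whether accessibility of these genes changed when DLGAP1-AS2 was silenced. No member region passed the test. Within each library the shared regions were ranked by fold enrichment. Normal scores of these ranks were fitted with limma over all 37284 shared regions with Benjamini-Hochberg adjustment at 0.05. The background of calls was 0% (0 regions), and 0 of the 35 member regions were called (adjusted p at least 0.963). At an unadjusted p under 0.05 there was 1 member region, higher in silenced cells, against 4.68% of all shared regions (1.98% higher and 2.70% lower in silenced cells). The member differences, silenced minus control, had a median of 0.06 score units, with 22 above and 13 below 0. The median over all shared regions was 0.01, with 18959 above and 18325 below 0. The 8 start-site regions split evenly, 4 above and 4 below 0.

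The member region with the smallest unadjusted p lay in the ARID1A window but inside PIGV, a gene of glycolipid anchor synthesis, 93.1 kb from the ARID1A start (chr1:26789136-26789546). Its heights were 14, 21 and 11 in the silenced libraries and 12, 11 and 10 in the controls. By rank it stood at the 11.5, 26.2 and 39.1 percentile in silenced replicates and at the 8.17, 1.86 and 2.11 percentile in control replicates, so the groups did not overlap. The difference was 1.13 ± 0.45 score units (SE, limma adjusted p = 0.963), higher in all 3 silenced libraries. Groups did not overlap at 2 member regions, both higher in silenced libraries, where 10.2% of shared regions did so, 5.39% in that direction and 4.78% in the other. The other lay 269.8 kb inside ARID1B (chr6:157045806-157046381).

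The ARID1A region 48.0 kb inside the gene differed by −0.40 ± 0.22 score units (SE, limma adjusted p = 0.963), with the groups overlapping. The SMARCA4 start-site region differed by −0.66 ± 0.40 score units (SE, limma adjusted p = 0.963), the lowest value of the 35. This value rested on silenced replicate 3, without which it was 0.03 (limma adjusted p = 0.999). The low coverage of that library moves with this result. The ratio of the SMARCA4 start in that library lay below the library's median ratio of 0.575, and why was not tested. For the other start-site regions the differences were 0.13 ± 0.24 for SMARCA2, 0.38 ± 0.31 for SMARCB1, −0.06 ± 0.22 for SMARCC1, −0.07 ± 0.28 for SMARCC2, 0.24 ± 0.33 for SMARCD3, 0.19 ± 0.27 for ARID2 and −0.20 ± 0.32 for PBRM1 (SE, limma adjusted p 0.965 to 0.986).

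**Figure D4:**
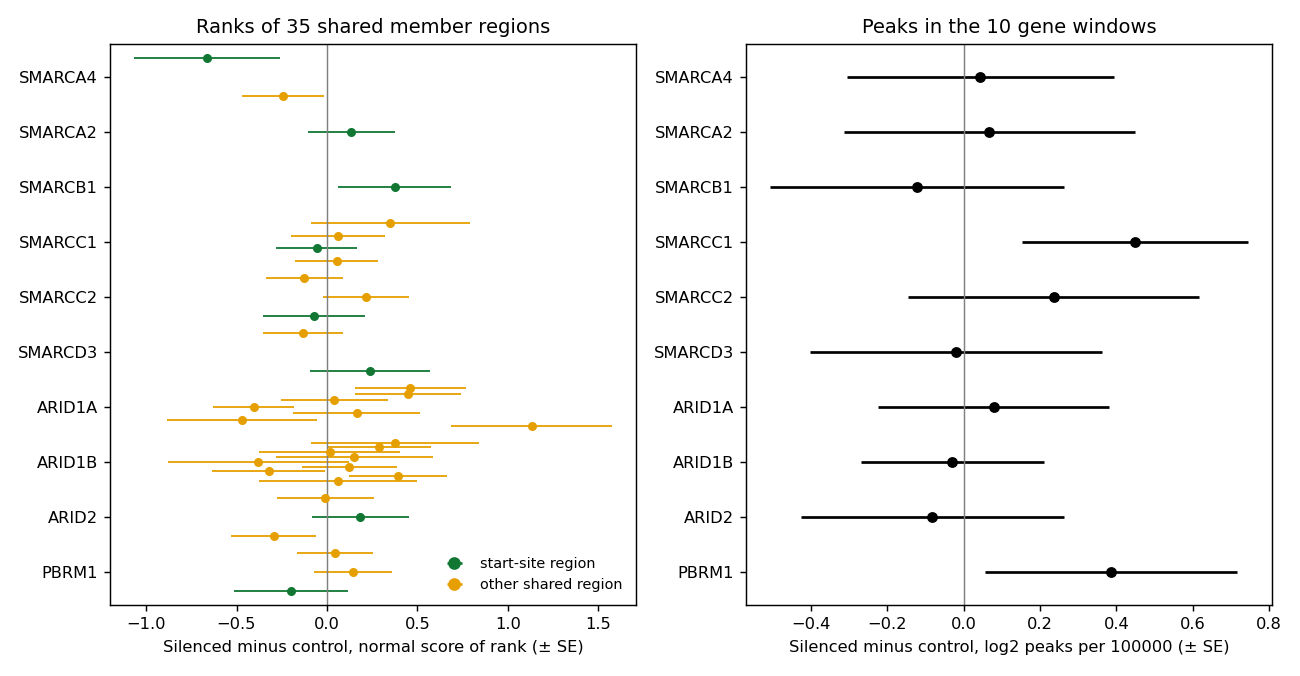
Left, silenced minus control difference in normal scores of rank for the 35 shared member regions, green for start sites and orange for the others, with standard errors from limma. Right, the difference in log2 peaks per 100000 for the 10 gene windows, with standard errors. The SMARCA4 start lies lowest on the left, at −0.66, and 1 region of the ARID1A window highest, at 1.13.

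No member region was called in one group only. Of the 392 member regions, 0 were called in all 3 silenced and no control libraries, and 0 in all 3 control and no silenced libraries. Over all merged regions these shares were 0.130% and 0.200%, or 0.331% together. Of the 11 member regions called in exactly 5 libraries, 7 were missing in silenced replicate 3, the library also missing in 40.6% of such regions overall.

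The number of peaks in each window was set against the length of the library's list and tested with limma over the 13830 protein-coding genes with a mean of at least 3 peaks. No gene was called (0% of genes tested), all 10 members included (adjusted p = 0.997), and 329 genes (2.38%), with 0 members among them, had an unadjusted p under 0.05 (1.10% higher and 1.28% lower in silenced cells). The largest member difference was in SMARCC1, with 23, 21 and 18 peaks in the silenced libraries and 19, 9 and 15 in the controls. Per 100000 peaks of the list these were 14.2, 12.5 and 14.8 against 11.1, 9.85 and 9.05, higher in all 3 silenced libraries (groups did not overlap in 5.89% of genes tested, 2.28% in that direction and 3.62% in the other). The log2 difference was 0.45 ± 0.30 (SE, limma adjusted p = 0.997). PBRM1 followed with 0.39 ± 0.33, and the other 8 genes lay between −0.12 (SMARCB1) and 0.24 (SMARCC2). ARID1B had the most peaks, 48, 48 and 37 in the silenced libraries and 46, 29 and 53 in the controls, and a log2 difference of −0.03 ± 0.24.

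Of the 10 windows, 6 had values above and 4 below 0, with a median log2 difference of 0.06. The median of all 13830 genes tested was −0.08, with 5535 above and 8295 below 0. The 19 other subunit genes had a median of −0.23 (6 above and 13 below 0), and the 14 catalytic subunits of other remodellers a median of −0.08 (5 above and 9 below 0). In both lists 0 genes were called, at an adjusted or an unadjusted p under 0.05.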

How the data were processed

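The authors deposited one peak list per library, 3 from silenced and 3 from control cells. The submitters' processing notes name GRCh38, Trimmomatic 0.36, Bowtie2 2.2.6, Picard 2.8.2, MACS2 2.1.1 and bedtools 2.25.0 without settings; read shifting is not given in the sources used here. Per the file headers, each peak has the authors' fold enrichment (a ratio), p-value, FDR and pileup signal, here the height. Every deposited p-value was at most 0.00987. These values describe peaks within a list.

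Peaks of the autosomes and sex chromosomes were merged at an overlap of at least 1 bp. Ranks of shared regions, and log2 of peaks plus a pseudocount of 0.5 per 100000, were fitted with limma 3.58.1 (R 4.3.3, trended prior). The fits were also run on simulated data with shifts of set sizes, whose outcome is not given here. Window genes needed a mean of at least 3 peaks. Total reads are unknown, so no counting interval is given. Genes and promoter sequences came from RefSeq (GRCh38.p14). The members, lists and tests were chosen with earlier results of these data known. Named regions were, by rule, the start-site region, the tallest shared region over 1 kb away, group-only regions and the 3 smallest p-values; others were chosen after their values were seen. Alternatives were an FDR of at most 1e-05, a height of at least 4, equal list sizes, other rankings, overlaps, windows, pseudocounts and filters, each library left out, and a replicate block.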

Additional observations from a re-analysis of the deposited data

How the results depend on the processing

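The smallest shift that 3 libraries per group could detect is not given here. The rank comparison gave 0 calls under each alternative run (854 to 2379 regions at an unadjusted p under 0.05). Peaks per gene window gave 0 calls except 1 (PDGFC) at an FDR of at most 1e-05, 2 without control replicate 1 (KCNMB2, NKAIN2) and 1 without control replicate 3 (KCNMB2), a range of 0 to 2 when single libraries were left out; none is a member. Members with a start site overlapped by a region called in every library numbered 8. At an FDR of at most 1e-05 they numbered 6 (SMARCA4 and SMARCD3 dropped out). When single libraries were left out they numbered 8 to 9 (ARID1A entered without silenced replicate 3). Member regions called in one group only numbered 0 under every filter run and 2 to 7 when single libraries were left out, where fewer libraries must meet the condition. These were 0.510% to 1.79% of member regions, against 0.876% to 1.53% of all regions (1.79% against 1.11% without silenced replicate 1, and 1.53% against 1.42% without silenced replicate 3). No named member result passed the threshold under any alternative (lowest adjusted p = 0.738).

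Signs reversed under filters in 5 of the 20 named results. With the gene span alone the log2 difference in peaks was −0.18 for SMARCA4, −0.035 for SMARCA2 and 0.028 for ARID2. At a height of at least 4 it was 0.28 for SMARCB1 and 0.34 for SMARCD3, with equal list sizes 0.088 and 0.12, and at an FDR of at most 1e-05 it was 0.24 for ARID2. The cause was not tested.

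When single libraries were left out, start-site rank differences ran from −1.06 to 0.026 for SMARCA4, −0.14 to 0.36 for SMARCA2, −0.22 to 0.16 for SMARCC1, −0.23 to 0.078 for SMARCC2 and −0.37 to 0.045 for PBRM1. Log2 differences in peaks ran from −0.24 to 0.34 for SMARCA4, −0.24 to 0.56 for SMARCA2, −0.43 to 0.48 for SMARCB1, −0.011 to 0.71 for SMARCC2, −0.15 to 0.20 for SMARCD3, −0.037 to 0.20 for ARID1A, −0.11 to 0.012 for ARID1B and −0.30 to 0.26 for ARID2. The other 7 named results kept their sign.

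Replicate numbers are shared by the groups, but same-numbered libraries did not deviate together (correlations across regions −0.002, 0.002 and −0.008; across gene windows 0.14, −0.20 and −0.20). With a replicate block, 0 regions and 0 gene windows were called, and the difference at the SMARCA4 start stayed at −0.66 (limma adjusted p = 0.975).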
